A study of Arabidopsis thaliana with 12 samples.

Results

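The 45 genes described here are nuclear genes of the photosynthetic apparatus of Arabidopsis, out of 32678 genes counted. They were chosen by locus name and product: 4 genes of the photosystem I antenna (LHCA1 to LHCA4), 14 of the photosystem II antenna (LHCB1 to LHCB6), 12 of photosystem I subunits (PSA), 10 of photosystem II subunits (PSB), 4 of the Rubisco small subunit (RBCS) and Rubisco activase (RCA). All 45 had enough counts to be tested, as did 19167 genes in total. Transcripts were counted in 12 libraries of polyadenylated leaf RNA.

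The 12 libraries formed 6 groups of 2, which crossed 2 genotypes with 3 treatments. The genotypes were Col-0 wild type and camta3-D (sr1-4d), which carries a dominant mutation in CAMTA3, a calmodulin-binding transcription factor that acts in immunity. Plants were 4 weeks old and grown in short days, and their leaves were infiltrated with a syringe. Leaves were taken 1 h after 100 nM flg22, a peptide of bacterial flagellin that starts pattern-triggered immunity (PTI), or 4 h after Pseudomonas syringae pv. tomato (Pst) DC3000 at OD600 = 0.001. The bacteria carried AvrRpm1 or AvrRps4, effectors that start effector-triggered immunity (ETI) through the receptors RPM1 and RPS4. Each sample pooled leaf discs of 6 plants. For flg22 and AvrRpm1 the study describes its RNA-seq data as coming from 2 separate experiments. No source used here says so for AvrRps4 or which experiment each library belongs to. A p-value therefore reflects only the spread between libraries of the same group, estimated jointly over groups and genes. No mock-treated or untreated library was analysed here. A difference between genotypes seen after a treatment and one already there before it cannot be told apart, and Pst was not compared with a control of its own. In bulk leaf RNA, fewer cells of a type and less RNA per cell cannot be told apart either.

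Light is caught by chlorophyll held in antenna proteins. The LHCB proteins serve mainly photosystem II, which splits water, and the LHCA proteins serve photosystem I, which passes electrons on to ferredoxin. The core proteins of both photosystems and the Rubisco large subunit are made in the chloroplast, whereas the antenna, many smaller subunits and the Rubisco small subunit come from nuclear genes. These nuclear genes respond to light, to the circadian clock and to signals from the chloroplast, and many are known to be repressed during immune responses.

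The libraries held 22.8 to 26.3 M counts in genes, and the 45 genes took 17.7 to 26.7% of them. Levels are given in CPM, counts per 1 M gene counts, after scaling of the library sizes by TMM, with factors of 0.797 to 0.825 for the 4 flg22 libraries and 1.04 to 1.17 for the 8 Pst libraries. The summed CPM of 4 mesophyll markers ranged from 3471 to 7286, whereas the sums of root and of seed markers were at most 0.11 and that of flower markers was 0.0967 to 1.35. Markers of epidermis (177 to 277), phloem (245 to 441) and guard cells (21.1 to 50.4) were also present. Mesophyll markers thus dominated, as in a leaf, and markers of root, seed and flower were at or near 0. One library stood apart: reads aligned at more than 1 place were 7.78% of the total in the second camta3-D AvrRpm1 library and 2.56 to 3.43% in the other 11. Without it the median log2 fold change of the 45 genes was 0.24 for the genotypes after AvrRpm1 and 0.22 for their mean. It was −0.14 for the strains in camta3-D and −0.29 for Pst against flg22 in camta3-D. The medians with this library stand with each comparison below. In no comparison were more of the 45 genes called without it, and the share of all genes called was lower.

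Transcript levels per length differed widely among the 45 genes. LHCB1.3 (AT1G29930, chromosome 1, 10477885 to 10479114, TAIR10.1), which encodes a main protein of the trimeric antenna complex, had the highest mean level, with 26769.7 CPM per kb of exon over the 12 libraries. It alone took 2.25 to 4.89% of all gene counts. LHCB1.5 (15195 CPM per kb) and RBCS1A (11451 CPM per kb) followed. The lowest levels were those of LHCB4.3 (AT2G40100, chromosome 2, 16745628 to 16747424), an unusual form of the minor antenna protein CP29, with 40.0 CPM per kb, and of RBCS1B, with 212 CPM per kb.

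The classes did not keep a fixed proportion. Summed LHCB levels were 92729 and 96048 CPM in wild type after flg22, 81763 and 77797 after AvrRpm1, and 97468 and 116430.0 after AvrRps4. In camta3-D the sums were 121109 and 119440.0, then 91504 and 90524, then 142333 and 145172. The LHCB sum was thus lower after AvrRpm1 than after AvrRps4 in both genotypes, and in each treatment both camta3-D libraries exceeded both wild-type libraries. Summed RBCS levels had another order. They were 26889 and 30404 CPM in wild type after flg22, 17466 and 19490.3 after AvrRpm1 and 12866 and 13354 after AvrRps4, and in camta3-D 32988 and 30823, then 24055 and 25679, then 17484 and 14521. RBCS was lower after AvrRps4 than after AvrRpm1. The place of flg22 in such an order depends on how the libraries are scaled, but a ratio within a library does not. The 4 AvrRps4 libraries held 10 to 13.2 RBCS counts per 100 LHCB counts, against 21.4 to 28.4 after AvrRpm1 and 25.8 to 31.7 after flg22.

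**Figure D1:**
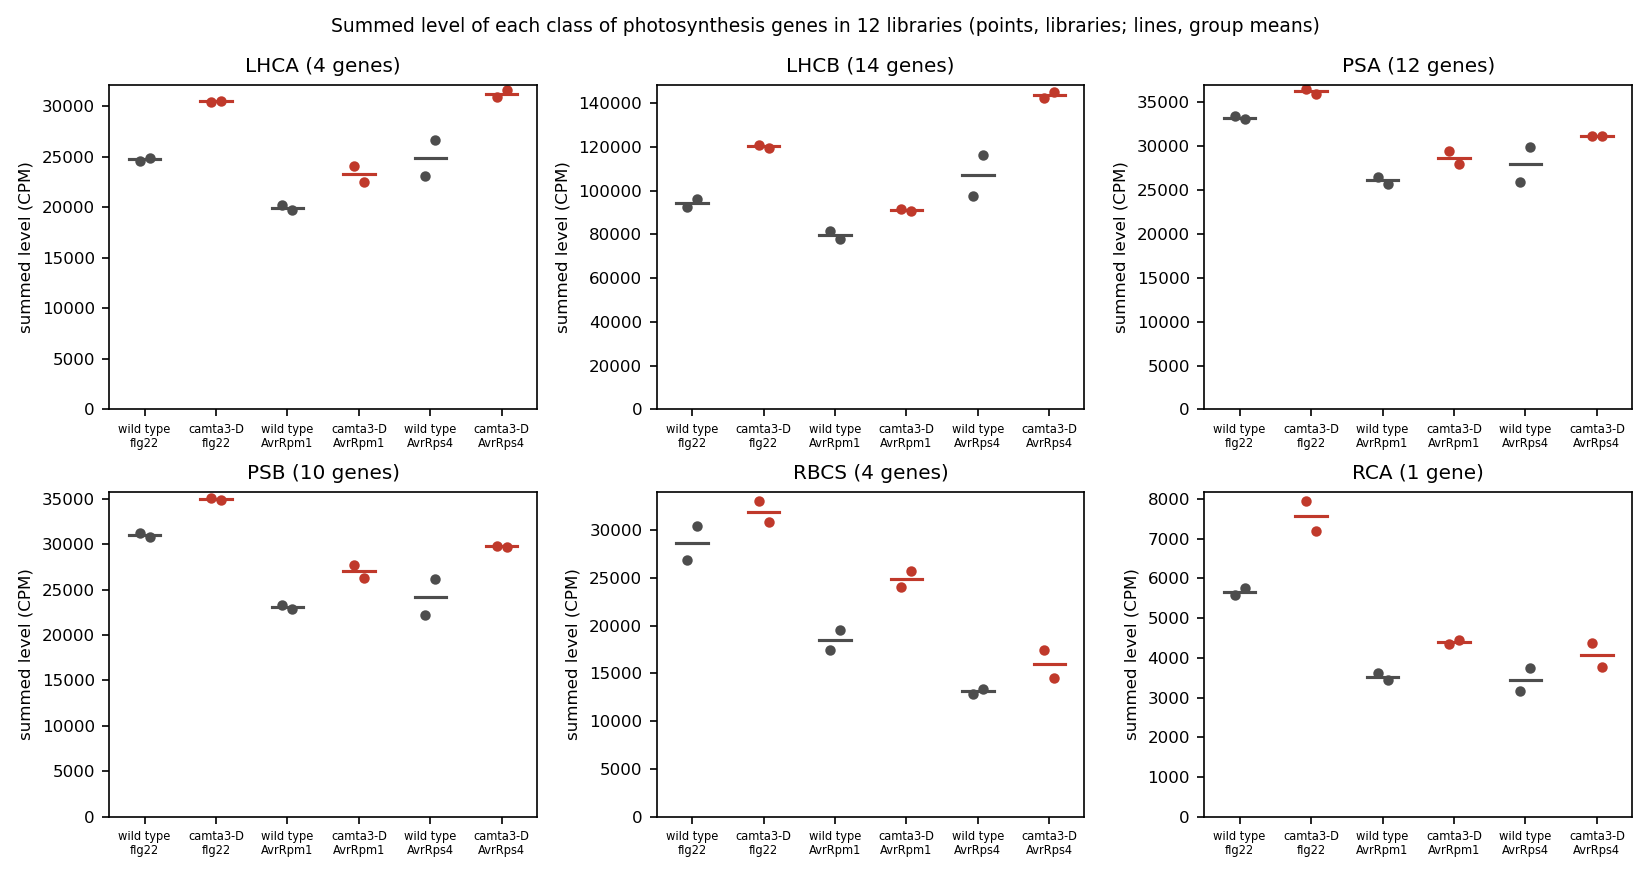
Summed level of each class in CPM (vertical axis) in the 6 groups (horizontal axis), with a point for each of the 12 libraries and a line for each group mean. LHCB is highest in the 2 camta3-D AvrRps4 libraries (142333 and 145172 CPM), whereas RBCS is lower after AvrRps4 than after AvrRpm1 in both genotypes.

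The first comparison, of camta3-D with wild type within each treatment, asks which transcripts differ between plants with the dominant form of CAMTA3 and wild type after the same treatment. After flg22, 5 of the 45 genes were higher in camta3-D and none was lower, with 4 of the 5 encoding antenna proteins and the other a subunit of photosystem I. A gene was called at an adjusted p under 0.05 in the quasi-likelihood test of edgeR, after Benjamini-Hochberg correction across the 19167 genes. Over all genes, 5.21% were called higher and 5.59% lower, so the share of photosynthesis genes called higher was above the background and the share called lower below it. The median log2 fold change of the 45 genes was 0.20, beside 0.04 over all genes, and 41 of the 45 values were above 0. No call held when any 1 of the 4 libraries was left out, each of which lowered the count from 5 to 0 and the share of all genes called higher to 0.272 to 1.79%. With the replicate number as a block 1 gene was called, and median-ratio size factors gave 3 calls in place of 5, beside 4.1 and 4.62% of all genes called higher.

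LHCB1.4 (AT2G34430, chromosome 2, 14524607 to 14525918), one of 5 LHCB1 genes, stood at 4689.7 and 4464 CPM in wild type and at 7719 and 8085 CPM in camta3-D after flg22. It was 1.73-fold higher (log2 0.79 ± 0.15, SE, adjusted p = 0.0139), and the groups did not overlap. LHCB6, which encodes the minor antenna protein CP24, stood at 5029.5 and 5109.6 CPM in wild type and 7126 and 6880.0 CPM in camta3-D (1.38-fold, adjusted p = 0.0302). PSAD2, 1 of 2 genes for the PsaD subunit at which ferredoxin docks, rose from 655 and 642 to 923 and 874 CPM (1.39-fold, adjusted p = 0.0336). LHCB1.5 was 1.4-fold higher (10173 and 10194 against 14174 and 14258 CPM, adjusted p = 0.0403) and LHCA4 1.34-fold (7609.5 and 7163 against 9835 and 9986 CPM, adjusted p = 0.0416). In these 5 genes both camta3-D libraries lay above both wild-type libraries. RCA, the activase that frees Rubisco of inhibitors, missed the threshold with a log2 difference of 0.42 ± 0.13 (adjusted p = 0.063). For RBCS1A the difference was 0.13 ± 0.13 and the groups overlapped.

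After AvrRpm1, none of the 45 genes was called in edgeR's test, whereas 1.12% of all genes were called higher and 3.41% lower. At an unadjusted p under 0.05, 11 of the 45 were higher and 0 lower, beside 8.56 and 11.5% of all genes. DESeq2 called 3 higher and 0 lower, beside 2.01 and 5.81% of all genes. The median was 0.21, beside 0.01 over all genes, and 40 values were above 0. The lowest adjusted p was that of RBCS2B (AT5G38420, chromosome 5, 15380907 to 15382071), which stood at 1633 and 1596 CPM in wild type and at 2548 and 2372 CPM in camta3-D (1.52-fold, log2 0.61 ± 0.16, adjusted p = 0.0618). RBCS1A, the most abundant small subunit gene, stood at 11214 and 12798 against 15489 and 16767 CPM (1.34-fold, adjusted p = 0.109). For both genes the groups were apart, yet the test did not pass.

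After AvrRps4, 3 genes were higher in camta3-D and none was lower, where 2.49% of all genes were called higher and 2.44% lower. The median was 0.23, beside a median of −0.00 over all genes, with 38 values above 0. It was 0.14 without the first and 0.36 without the second wild-type library, and 0.11, beside −0.13 over all genes, when the libraries were scaled by total counts. LHCB1.4 stood at 5791 and 7153 CPM in wild type and 9525 and 11056 CPM in camta3-D (1.59-fold, log2 0.67 ± 0.15, adjusted p = 0.0347). LHCB1.3 stood at 28091 and 34023 against 43799 and 46907 CPM (1.46-fold, adjusted p = 0.0431). PSBO1 (AT5G66570, chromosome 5, 26568572 to 26570461), which encodes a protein that shields the water-splitting manganese cluster of photosystem II, stood at 3956 and 4919.9 against 6312 and 6358 CPM (1.43-fold, adjusted p = 0.0448). In each of the 3 the second wild-type library lay between the first and the camta3-D libraries. That library differed from its partner in most of the 45 genes: 43 of 45 were higher in it, with a median log2 difference of 0.22, while over all genes the median difference was 0.00. Without it 8 genes were called higher, beside 1.47% of all genes, and without any 1 of the other 3 libraries the count was 0, beside 0.174 to 0.24%. DESeq2 called 11 higher and 0 lower, beside 4.53 and 4.98% of all genes, and with the replicate number as a block 0 were called, beside 1.67% of all genes called higher. In the other 5 groups the median difference between the libraries was −0.07 to 0.00. PSBS, the sensor of excess light that starts the release of light energy as heat, went the other way with 742 and 716 CPM in wild type and 665 and 515 CPM in camta3-D, which did not pass the test (log2 −0.31 ± 0.13, adjusted p = 0.191).

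Averaged over the 3 treatments, the genotype difference was tested with more libraries. Of the 45 genes, 18 were higher in camta3-D and none was lower, with a median of 0.22 beside 0.02 over all genes, where 10.3% of all genes were called higher and 10.5% lower. The sign was positive for 40 of the 45, against 53.1% of all genes. The calls fell in 9 of 14 LHCB genes (median 0.31), 3 of 4 LHCA (0.29), 3 of 10 PSB (0.23), 2 of 4 RBCS (0.26) and RCA (0.33), while none of the 12 PSA genes was called (0.15, lowest adjusted p = 0.052 for PSAF). Of the PSA genes, 6 were higher at an unadjusted p under 0.05, beside 18.5% of all genes, and DESeq2 called 2, beside 10.1%. LHCB1.4 differed most (1.49-fold, log2 0.58 ± 0.08, adjusted p = 0.00213), followed by RBCS2B and LHCB1.2 (both 1.32-fold). PSBO1 and LHCB1.3 were 1.28-fold higher (adjusted p = 0.00834 and 0.00906), LHCA1 1.26-fold (0.00901), and LHCB6, LHCA4 and RCA 1.25-fold (0.00892, 0.009 and 0.0136). RBCS1A was 1.23-fold higher (0.0219). These differences were small. Values below 0, none of them called, were those of LHCB2.1, LHCB2.2 and LHCB4.3 (each −0.07), PSAH1 (−0.06) and PSBS (−0.04). Of the 18 calls, 11 held whichever library was left out, and the count was 11 without the first wild-type flg22 library and 27 without the second wild-type AvrRps4 library. It was also 12 without the second wild-type flg22 library or without either wild-type AvrRpm1 library, and 13 to 17 without any 1 of the others.

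**Figure D2:**
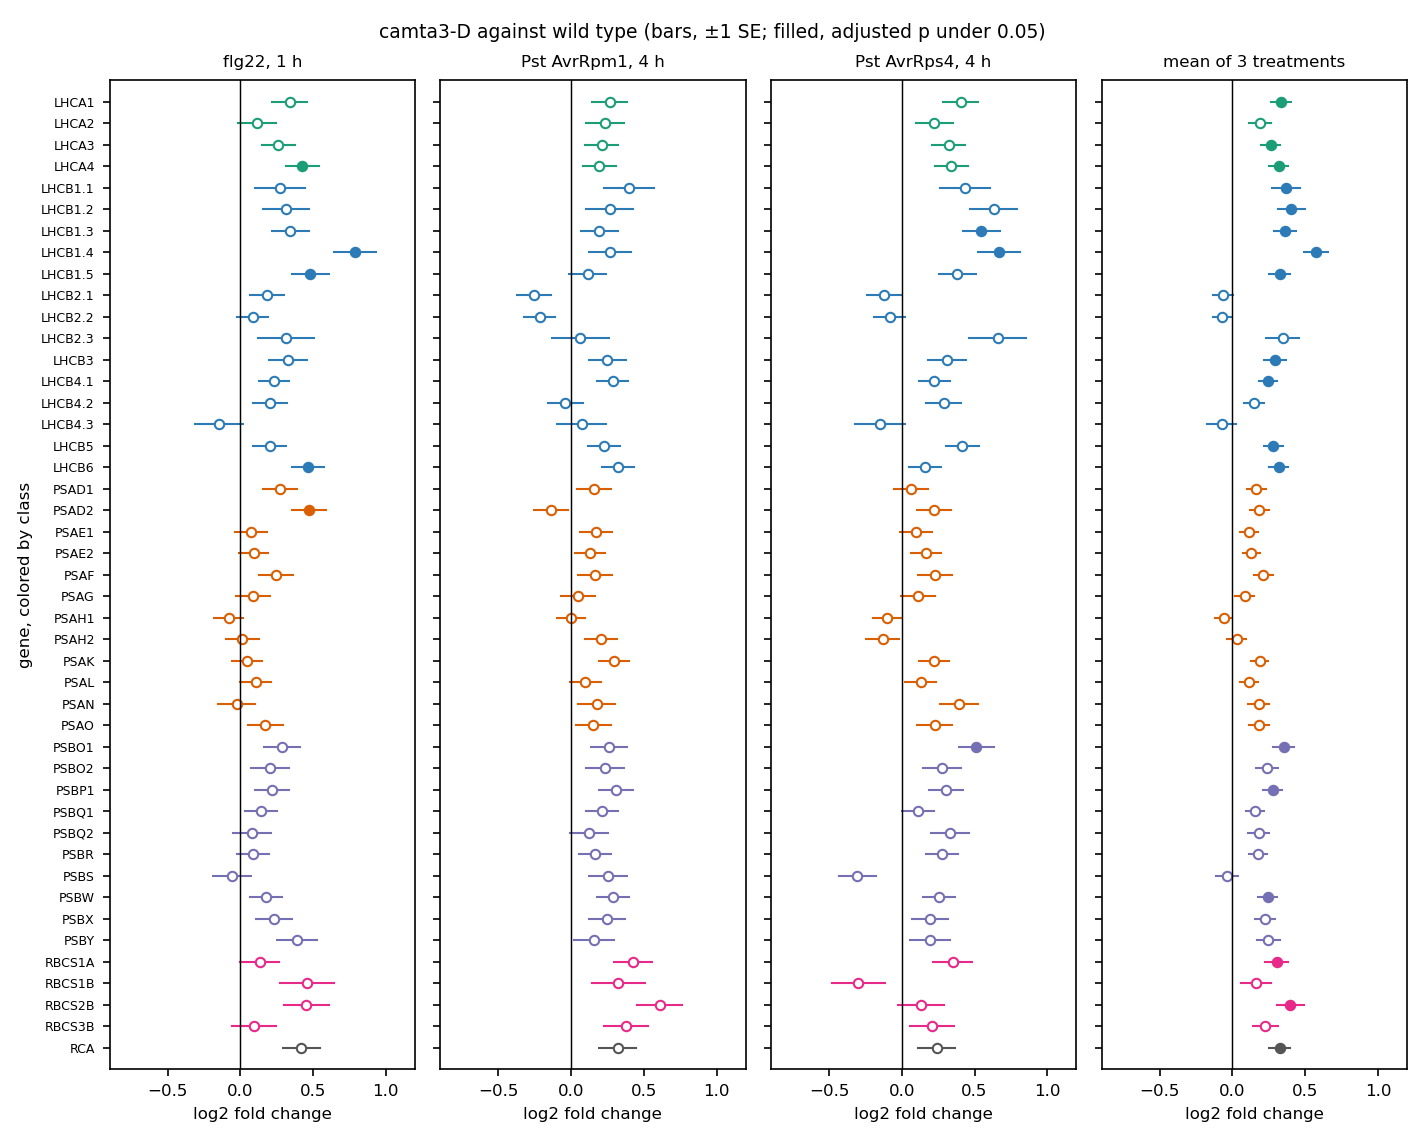
Log2 fold change of camta3-D against wild type (horizontal axis) for each of the 45 genes (vertical axis, colored by class) in each treatment and averaged over the 3 treatments, with bars of 1 SE. Filled points passed an adjusted p under 0.05, which 5, 0, 3 and 18 genes did, all of them higher in camta3-D.

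The genes around photosynthesis were compared in the same way on lists written from general knowledge of their function. Their counts stand beside the 10.3% of all genes called higher and 10.5% lower in the same contrast. In the mean over treatments, 8 of the 10 tested genes of other photosystem and antenna proteins were higher in camta3-D (median 0.33, beside 0.02 over all genes), among them PSB27 (log2 0.55), an assembly factor of photosystem II. Of 18 genes of chlorophyll synthesis 8 were higher and none lower (median 0.27). CHLH, a subunit of the magnesium chelatase, stood at 1212 and 1247 CPM in wild type and 2227 and 1914 CPM in camta3-D after flg22, and its mean log2 difference was 0.71 (adjusted p = 0.000553). FLU, which restrains chlorophyll synthesis in the dark, was also higher (0.50, adjusted p = 0.00102). Of 17 genes of the Calvin-Benson cycle 7 were higher and none lower (median 0.20), with FBP and FBA1 both at 0.41. Of 13 photorespiratory genes 5 were higher and 1 lower, and of 17 genes of electron transport and ATP synthase 3 were higher, led by the kinase gene STN8 (0.54, adjusted p = 0.000553). Of 11 genes of chlorophyll breakdown 3 were higher. With so few genes, counts such as 3 of 17 are near the background. None of the 11 clock genes was called by edgeR, with 2 higher and 1 lower at an unadjusted p under 0.05, beside 18.5 and 17.1% of all genes, and 1 lower in DESeq2, beside 12.6%. Among 21 regulators of these genes 5 were higher and 2 lower (1 and 3 when the libraries were scaled by total counts, beside 6.3 and 14.3% of all genes), with SIG1 at 0.29 (adjusted p = 0.00974) and HYH, a relative of the light factor HY5, at −1.10 (adjusted p = 0.016).

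Among markers of leaf cell types, those of mesophyll and guard cells differed with genotype. Summed epidermis markers overlapped after flg22 and were higher in camta3-D after both Pst strains. Summed phloem markers were higher in camta3-D after flg22, lower after AvrRpm1 and overlapped after AvrRps4. The summed mesophyll markers, enzymes of carbon fixation that are themselves part of photosynthesis, were 6272 and 6344 CPM in wild type and 7286 and 6959.9 CPM in camta3-D after flg22, 4947 and 4779 against 5383 and 5264 after AvrRpm1, and 3471 and 3684 against 4594 and 4294 after AvrRps4. Of 4 guard cell markers, 3 were called lower in camta3-D in the mean (FAMA −0.50, MYB60 −0.41 and KAT1 −0.66). Their part in the genotype difference was not tested.

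A second comparison set AvrRpm1 against AvrRps4, sampled at the same time after the same dose of bacteria, in each genotype. Here the antenna and the Rubisco small subunit went in opposite directions. In wild type, 2 of the 45 genes were higher after AvrRpm1 and 6 lower, where 1.58% of all genes were called higher and 2.17% lower. In camta3-D, 6 were higher and 13 lower, where 10.5% and 12.4% of all genes were. The members were thus called more often than all genes, in both directions in wild type and mainly downward in camta3-D. Of the 14 LHCB genes, 6 fell and 1 rose in wild type (median −0.54), and 10 fell and 1 rose in camta3-D (median −0.81). All 4 RBCS genes had positive values in both genotypes, with 1 call in wild type (median 0.43) and 4 in camta3-D (median 0.90). Medians of the PSA and PSB genes were close to 0, at −0.10 and −0.07 in wild type and −0.11 and −0.14 in camta3-D. The medians over the 45 genes were −0.15 and −0.16, beside 0.00 and 0.01 over all genes, and that of wild type was −0.24 without the first and −0.04 without the second AvrRps4 library.

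LHCB2.3 (AT3G27690, chromosome 3, 10255906 to 10257489), 1 of 3 genes for the second main protein of the trimeric antenna, had the lowest ratio. It stood at 353 and 274 CPM after AvrRpm1 and at 754 and 1093 CPM after AvrRps4 in wild type, 2.94-fold lower (log2 −1.56 ± 0.20, adjusted p = 0.00714). In camta3-D the levels were 364 and 292 against 1391 and 1528 CPM, 4.45-fold lower (log2 −2.15 ± 0.20, adjusted p = 0.000554). No library after AvrRpm1 reached the lowest after AvrRps4. After flg22 the gene stood at 1050.3 to 1420.3 CPM in the 4 libraries. LHCB2.1 stood at 2489.9 and 2217 against 4213 and 4634 CPM in wild type (1.88-fold lower, adjusted p = 0.00721) and at 1975 and 1962 against 4299 and 3817 CPM in camta3-D (2.06-fold lower, adjusted p = 0.000998). Its flg22 levels were 2181 to 2627 CPM, close to those after AvrRpm1, so on the TMM scale LHCB2.1 was high after AvrRps4 while LHCB2.3 was low after AvrRpm1.

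LHCB4.3 ran against the other antenna genes. It stood at 56.4 and 67.6 CPM after AvrRpm1 and 20 and 20.3 CPM after AvrRps4 in wild type, 3.08-fold higher (log2 1.62 ± 0.17, adjusted p = 0.00456), and at 76.5 and 53.8 against 19 and 17.3 CPM in camta3-D, 3.59-fold higher (log2 1.84 ± 0.17, adjusted p = 0.000554). Its partner LHCB4.2, which also encodes CP29, stood at 2171 in both libraries after AvrRpm1 and at 3153 and 3767 CPM after AvrRps4 in wild type (1.59-fold lower, adjusted p = 0.0184), and at 2196 and 2028 against 4087 and 4359 CPM in camta3-D (adjusted p = 0.0011). LHCB1.1 and LHCB3 were also called lower in both genotypes. LHCB1.3 was lower by test in camta3-D (log2 −0.58 ± 0.13, adjusted p = 0.0112), and its value in wild type was −0.23 ± 0.13 (adjusted p = 0.363). LHCA1 likewise passed in camta3-D (−0.50 ± 0.12, adjusted p = 0.015), with −0.37 ± 0.12 in wild type (adjusted p = 0.123).

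RBCS3B (AT5G38410, chromosome 5, 15376988 to 15378642) stood at 4162 and 4604 CPM after AvrRpm1 and 2636 and 2530.4 CPM after AvrRps4 in wild type, 1.7-fold higher (log2 0.76 ± 0.15, adjusted p = 0.0261). In camta3-D it stood at 5389 and 5981 against 3386 and 2571 CPM, 1.91-fold higher (adjusted p = 0.00338). RBCS2B, RBCS1B and RBCS1A were 1.88-, 1.84- and 1.42-fold higher in camta3-D (adjusted p = 0.00428, 0.00915 and 0.0243). PSBS was 2.06-fold higher in camta3-D, with 1249 and 1176 against 665 and 515 CPM (log2 1.04 ± 0.13, adjusted p = 0.00137). In wild type its levels were 977 and 1059.6 against 742 and 716 CPM, which missed the threshold (0.48 ± 0.13, adjusted p = 0.0723). PSAF (−0.10 and −0.16), PSBO1 (−0.07 and −0.32) and RCA (0.03 and 0.11) were not called in wild type or camta3-D.

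**Figure D3:**
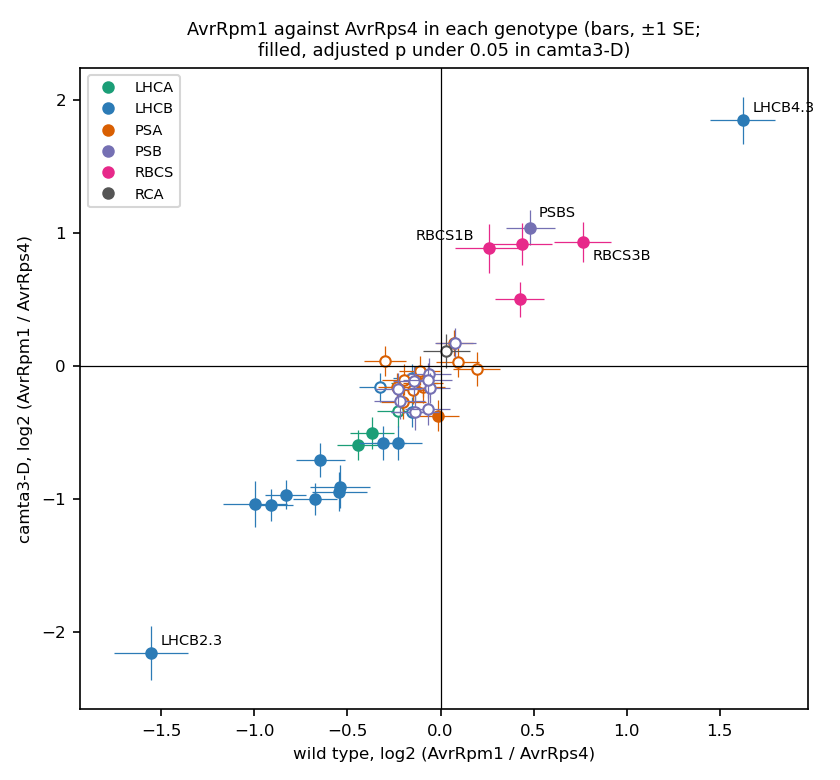
Log2 ratio of AvrRpm1 to AvrRps4 for wild type (horizontal axis) against camta3-D (vertical axis) for the 45 genes, colored by class, with bars of 1 SE. LHCB2.3 lies lowest (−1.56 and −2.15), LHCB4.3 highest (1.62 and 1.84), and the RBCS genes lie above 0 on both axes.

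The genotypes share no library here, and 43 of the 45 genes had the same sign in both. All 8 genes called in wild type were also called, with the same sign, among the 19 of camta3-D. Neither agreement was counted over all genes, of which 1.58 and 2.17% were called in wild type and 10.5 and 12.4% in camta3-D. It is therefore not read as particular to these genes. In wild type the calls depended on single libraries, and the share of all genes called fell whichever library was left out. The median of the 45 genes was −0.16 without the first and −0.14 without the second AvrRpm1 library. DESeq2 called 4 higher and 11 lower, beside 3.58 and 4.08% of all genes. LHCB2.1, LHCB2.3 and LHCB4.3 were called whichever library was left out. In camta3-D the median was −0.20 to −0.14 with a library left out, and fewer of the 45 genes and of all genes were called.

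LHCB genes are known outputs of the circadian clock, and some clock genes differed between the strains. Of 11 clock genes, 1 was higher and 1 lower after AvrRpm1 in wild type, where 1.58 and 2.17% of all genes were, and 2 were higher and 3 lower in camta3-D, where 10.5 and 12.4% were. The other 9 in wild type and 6 in camta3-D were not called. PRR9 stood at 3.30 and 2.26 CPM after AvrRpm1 and 10.3 and 5.8 CPM after AvrRps4 in wild type (log2 −1.53, adjusted p = 0.0322), and at 1.14 and 1.78 against 12 and 8.90 CPM in camta3-D (−2.85, adjusted p = 0.00117). CCA1, a morning factor that binds LHCB promoters, was at −1.03 in wild type (adjusted p = 0.149) and fell by 1.74 in camta3-D (adjusted p = 0.0104). ELF4, an evening gene, rose by 1.43 in wild type (adjusted p = 0.0206) and 1.3 in camta3-D (adjusted p = 0.00797) on the log2 scale. SIG5, a sigma factor for chloroplast genes that responds to light and the clock, stood at 3.66 and 5.61 CPM after AvrRpm1 and 20.6 and 19.2 CPM after AvrRps4 in camta3-D (adjusted p = 0.000998). The sum of the mesophyll markers was also higher after AvrRpm1 (4779 to 5383 CPM in 4 libraries) than after AvrRps4 (3471 to 4594 CPM). Of these markers, CA1 was higher after AvrRpm1 in both genotypes, whereas GAPA was lower in camta3-D. The sum thus does not stand for every marker. The part of the clock and of the mesophyll markers in the difference between the strains was not tested.

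Other pathways of the chloroplast were divided in the same contrast. HEMA1, whose enzyme catalyses the first committed step towards chlorophyll and heme, was lower after AvrRpm1 in both genotypes (−0.83 in wild type, adjusted p = 0.00721, and −1.07 in camta3-D, adjusted p = 0.000682). In camta3-D, where 10.5% of all genes were called higher and 12.4% lower, 3 of 18 genes of chlorophyll synthesis were higher and 5 lower. Of 17 Calvin-Benson genes 7 were higher and 2 lower there. Carbonic anhydrase CA1 was higher (2882 and 2714 against 1538 and 1415 CPM in wild type, log2 0.92, adjusted p = 0.00567, and 0.89 in camta3-D, adjusted p = 0.00129). Within the Calvin-Benson cycle, the 2 kinds of glyceraldehyde 3-phosphate dehydrogenase subunit went apart in camta3-D, with GAPA at −0.54 (adjusted p = 0.00795) and GAPB at 0.55 (adjusted p = 0.00852). Among 83 chloroplast-encoded genes 22 were higher after AvrRpm1 and 0 lower in camta3-D (median 0.66, beside 0.01 over all genes). Such transcripts mostly lack the poly(A) tails used to make these libraries, so their counts are a small and uncertain sample.

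The third comparison set the mean of both Pst strains at 4 h against flg22 at 1 h within each genotype. It differs in the elicitor and in the time since infiltration, which cannot be told apart. In wild type, 6 of the 45 genes were higher with Pst and 29 lower, where 36.8% of all genes were called higher and 34.3% lower. In camta3-D, 3 were higher and 27 lower, where 33.9% and 32.5% of all genes were. Under TMM the share called lower was thus above the background in both. Medians were −0.30 in both genotypes, beside 0.05 and 0.03 over all genes. In camta3-D the count called was 19 without its first flg22 library.

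The direction of many of these calls depends on the scaling. Scaled by total gene counts alone, a choice made after seeing that the TMM factors differ between flg22 and Pst libraries, the median of all genes moved to 0.53 in wild type and 0.45 in camta3-D. The median of the 45 genes moved with it, to 0.18 and 0.12, and 17 were then called higher and 7 lower in wild type, beside 53.7 and 21.3% of all genes, and 16 and 7 in camta3-D, beside 50.3 and 20.9%. The share of the 45 genes called lower (15.6% in both genotypes) then lay below the background, as did the share called higher, so the comparison of shares turns with the scaling. Of the 35 and 30 genes called under TMM, 16 and 14 changed direction. Relative to the median of all genes, the 45 genes lay lower, at −0.35 (wild type) and −0.33 (camta3-D). These values are the same under both scalings because a change of scaling shifts all genes about equally, so their agreement is no separate check.

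**Figure D4:**
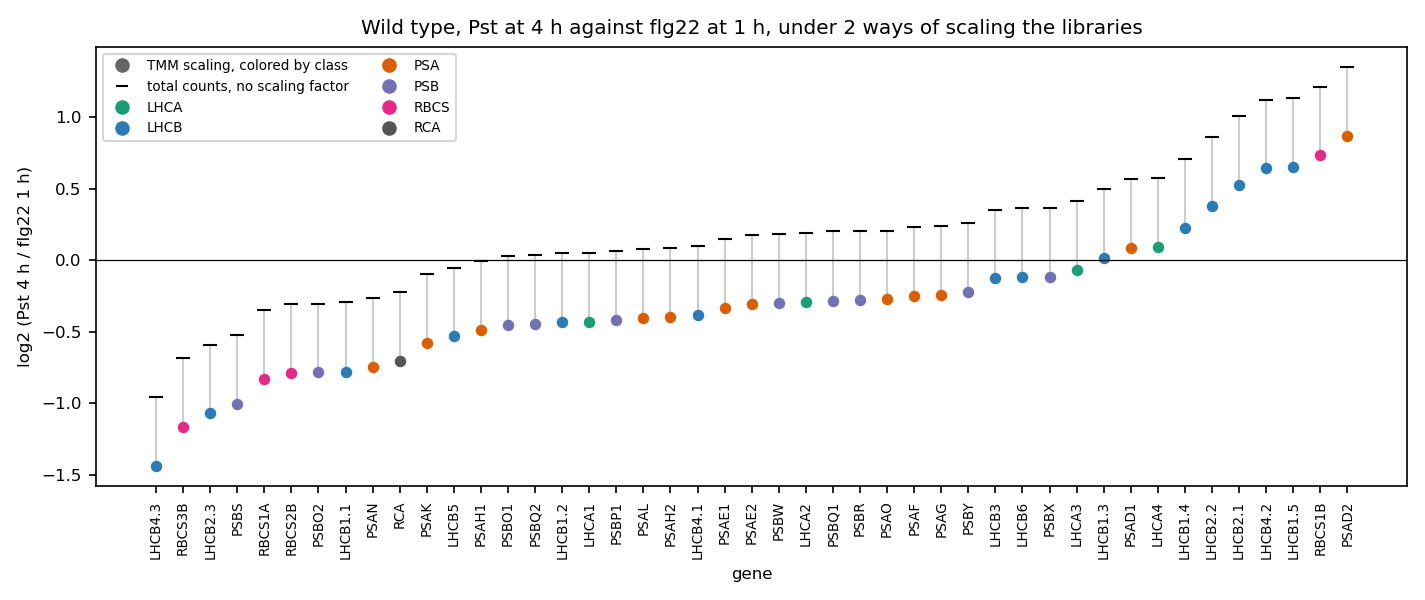
Log2 ratio of Pst at 4 h to flg22 at 1 h in wild type (vertical axis) for the 45 genes (horizontal axis), under TMM scaling (points) and under scaling by total counts (dashes), with a line at 0. All genes shift upward together under total counts, by which the median of all genes moves from 0.05 to 0.53. LHCB4.3 stays lowest and PSAD2 highest.

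Some genes kept their direction under both scalings. LHCB4.3 was at 92.2 and 99.2 CPM after flg22 in wild type and at 20 to 67.6 CPM in the 4 Pst libraries (log2 −1.44 ± 0.14, adjusted p = 7.97e-06), and its value in camta3-D was −1.33 ± 0.14 (adjusted p = 1.77e-05). RBCS3B fell from 6974 and 8138 to 2530.4 to 4604 CPM (−1.17 ± 0.13, adjusted p = 1.7e-05) and PSBS from 1711 and 1742 to 716 to 1059.6 CPM (2-fold lower, adjusted p = 1.77e-05). In all 3 genes every wild-type Pst library lay below both flg22 libraries. RBCS1A was lower as well (17236 and 19639.7 against 8729.7 to 12798 CPM, −0.83 ± 0.11, adjusted p = 8.21e-05), as were PSBO2 (−0.78 ± 0.11, adjusted p = 0.000113) and RCA (5575 and 5758 against 3157 to 3732 CPM, −0.70 ± 0.11, adjusted p = 0.000197). Of these, RCA, PSBO2 and RBCS3B had values of −0.84, −0.73 and −0.97 in camta3-D.

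The genes that rose under TMM were few. Those named here were also higher under total counts, but total counts shift all genes upward, so this is no separate check of their rise. PSAD2 stood at 655 and 642 CPM after flg22 and at 1114 to 1260.3 CPM in the wild-type Pst libraries (1.83-fold, log2 0.87 ± 0.11, adjusted p = 3.83e-05), and it rose by 0.44 in camta3-D (adjusted p = 0.00355). LHCB1.5 rose by 0.65 (adjusted p = 0.000469), LHCB4.2 by 0.64 (adjusted p = 0.00033) and RBCS1B by 0.73 (adjusted p = 0.00245) on the log2 scale in wild type. LHCB1.3, the most abundant of all, was at 0.02 ± 0.11 (adjusted p = 0.891). Around these genes, 12 of 17 Calvin-Benson genes were lower in each genotype and 2 and 0 higher, with GAPB at −0.95 and −0.77. Under total counts those numbers were 4 lower and 5 higher in wild type and 6 and 5 in camta3-D, so they follow the scaling. Of 21 regulators, 18 and 15 were higher and 2 lower in each, beside 36.8 and 33.9% of all genes called higher, and under total counts 19 and 15 were higher and 2 and 1 lower, beside 53.7 and 50.3%. Those higher under TMM included GLK1 and GLK2, activators of antenna and chlorophyll genes (1.5 and 2.95 in wild type), and the sigma factor SIG4 (4.08).

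Several of the proteins are encoded by more than one gene, and the ratio between such genes within a library does not depend on how libraries are scaled. Over 16 pairs of genes for the same protein, the mean log2 ratio in the 8 Pst libraries was compared with that in the 4 flg22 libraries by an exact two-sided permutation test within genotype, over 225 regroupings (smallest possible p = 0.00444). With adjustment over the 16 pairs, 9 had an adjusted p under 0.05. No such share was computed over other pairs of genes, and in wild type 36.8% of all genes were called higher and 34.3% lower between Pst and flg22. The count is therefore not read as a trait of these genes. Pairs that share LHCB1.3, LHCB2.2, LHCB4.1 or RBCS3B are also not independent. PSAD2 was present at 0.274 to 0.329 counts per count of PSAD1 after flg22 and at 0.419 to 0.537 with Pst, a shift of 0.65 on the log2 scale (exact permutation p = 0.00444, adjusted 0.0178). LHCB1.5 rose against LHCB1.3 (0.50, exact permutation test, adjusted p = 0.0178) and PSBO2 fell against PSBO1 (−0.36, exact permutation test, adjusted p = 0.0178). For PSAD, LHCB1.5 and PSBO the 2 sets of libraries did not overlap. The pairs PSAE2 to PSAE1 (0.03), PSAH2 to PSAH1 (0.08) and LHCB1.4 to LHCB1.3 (0.03) did not pass.

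The proportions of the LHCB4 and LHCB2 genes shifted between the Pst strains as well. LHCB4.2 was at 0.315 to 0.342 counts per count of LHCB4.1 after flg22, at 0.438 to 0.563 after AvrRpm1 and at 0.773 to 0.876 after AvrRps4, so that the 3 treatments did not overlap. Its shift between Pst and flg22 was 0.97 (exact permutation test, adjusted p = 0.0237). LHCB4.3 was at 0.0126 to 0.0184 counts per count of LHCB4.1 after flg22, at 0.0116 to 0.0175 after AvrRpm1 and at 0.00347 to 0.00491 after AvrRps4, with a shift that did not pass (−1.02, exact permutation test, adjusted p = 0.148). The AvrRps4 libraries thus had the highest proportions of LHCB4.2 and the lowest of LHCB4.3. LHCB2.3 was at 0.445 to 0.583 counts per count of LHCB2.2 after flg22, 0.127 to 0.180 after AvrRpm1 and 0.195 to 0.413 after AvrRps4, a shift of −1.31 between Pst and flg22 (exact permutation test, adjusted p = 0.0237). LHCB2.1 and LHCB2.2, by contrast, stayed near 1 to 1 in every library (0.965 to 1.12). RBCS1B rose against RBCS3B, from 0.0339 to 0.0471 counts per count after flg22 to 0.0934 to 0.178 with Pst (shift 1.57, exact permutation test, adjusted p = 0.0178). Between the strains, 8 of the 16 pairs did not overlap, with no share computed over other pairs of genes, but 36 regroupings allow no p below 0.0556.

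**Figure D5:**
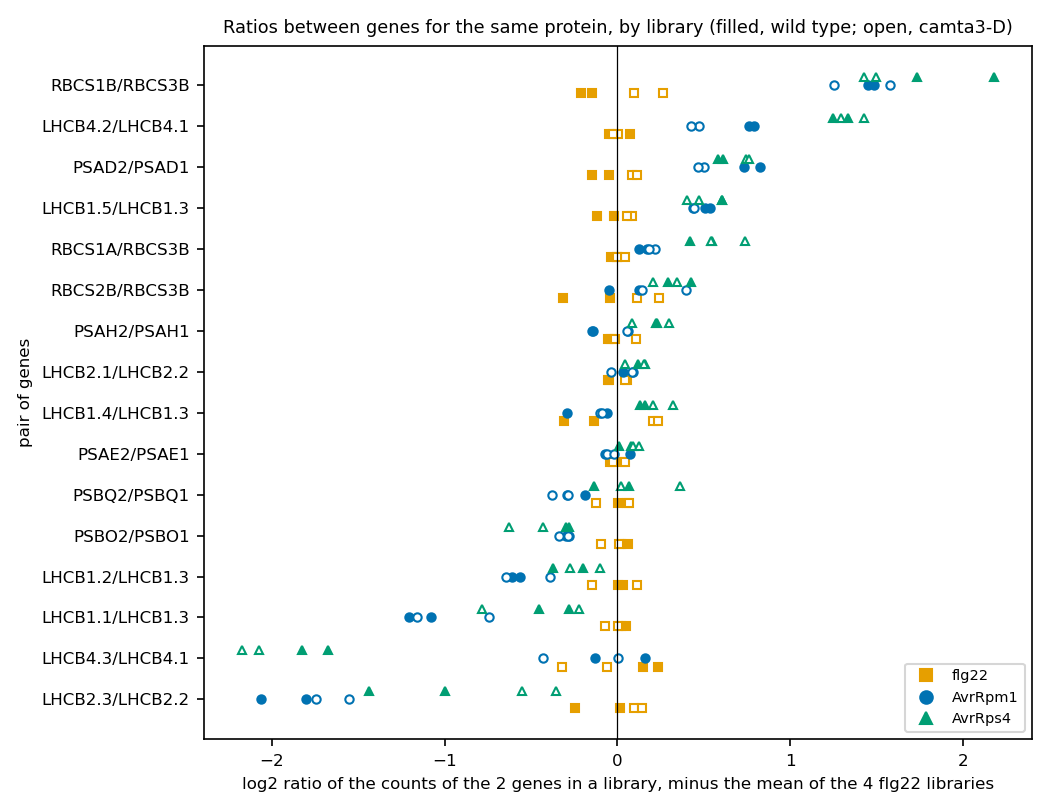
Log2 ratio of the counts of 2 genes for the same protein in each of the 12 libraries, minus the mean of the 4 flg22 libraries (horizontal axis), for 16 pairs (vertical axis), with filled points for wild type, open points for camta3-D and a color for each treatment. LHCB4.2 against LHCB4.1 separates all 3 treatments, and LHCB2.1 against LHCB2.2 hardly moves.

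Near-identical copies limit some of these ratios. Of all stretches of 50 bases in their transcripts, 10.6 to 20.5% in the LHCB1 genes, 22.7 and 28.2% in LHCB2.1 and LHCB2.2, and 14.0 to 21.4% in RBCS1B, RBCS2B and RBCS3B also occur in another gene, and the read length and the handling of such reads are not given in the sources used here. No such stretch of LHCB2.3, the LHCB4 genes, PSAD, PSAE, PSAH, PSBO or PSBQ was shared letter for letter. Stretches that differ by a few bases were not searched, and the part of misassigned reads in the shifts within LHCB4 and PSAD was not tested. Summed over the family, the LHCB2 genes were lower after AvrRpm1 than after AvrRps4 in wild type (−0.93, adjusted p = 0.00652) and camta3-D (−1.14, adjusted p = 0.000798). The sum of RBCS1B, RBCS2B and RBCS3B was higher in both (0.63, adjusted p = 0.0481, and 0.92, adjusted p = 0.00324). The LHCB1 sum was at −0.39 in wild type (adjusted p = 0.133) and −0.70 in camta3-D (adjusted p = 0.00577). The LHCB1 sum was also higher in camta3-D in the mean over treatments (0.37, adjusted p = 0.00889).

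Known light-responsive motifs were searched in the windows of 250 bases before the annotated starts. They are printed 5′ to 3′ on the strand of the gene, from the RefSeq TAIR10.1 genome, for the LHCB2 and LHCB4 genes, whose proportions shifted, and for 2 neighbouring RBCS genes. The ratio of these RBCS genes, RBCS2B to RBCS3B, did not pass between Pst and flg22 (shift 0.24, exact permutation test, adjusted p = 0.107). Capitals mark the G-box CACGTG and the I-box GATAAG, or its complement CTTATC, both known from promoters of light-regulated genes.
LHCB2.1 (chr2:1824481-1824730, minus strand): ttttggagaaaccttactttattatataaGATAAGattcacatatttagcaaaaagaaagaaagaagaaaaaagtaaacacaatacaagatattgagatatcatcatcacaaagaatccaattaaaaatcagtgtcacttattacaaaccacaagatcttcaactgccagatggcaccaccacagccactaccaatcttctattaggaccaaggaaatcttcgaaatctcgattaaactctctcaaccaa
LHCB2.2 (chr2:1800473-1800722, minus strand): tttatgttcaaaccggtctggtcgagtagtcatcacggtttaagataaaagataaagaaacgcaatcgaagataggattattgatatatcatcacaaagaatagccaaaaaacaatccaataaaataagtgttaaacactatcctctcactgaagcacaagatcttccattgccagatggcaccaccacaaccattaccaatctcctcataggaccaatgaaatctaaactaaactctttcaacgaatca
LHCB2.3 (chr3:10255656-10255905, plus strand): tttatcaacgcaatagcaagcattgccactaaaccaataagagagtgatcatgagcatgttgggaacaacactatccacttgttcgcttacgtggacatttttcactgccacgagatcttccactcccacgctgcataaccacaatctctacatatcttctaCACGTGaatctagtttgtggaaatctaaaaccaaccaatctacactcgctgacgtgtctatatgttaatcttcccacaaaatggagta
LHCB4.1 (chr5:208616-208865, plus strand): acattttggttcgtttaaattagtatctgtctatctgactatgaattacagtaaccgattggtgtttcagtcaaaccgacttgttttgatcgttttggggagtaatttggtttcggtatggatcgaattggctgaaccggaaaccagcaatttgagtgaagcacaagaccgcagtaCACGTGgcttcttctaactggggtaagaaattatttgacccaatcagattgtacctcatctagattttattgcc
LHCB4.2 (chr3:2717307-2717556, plus strand): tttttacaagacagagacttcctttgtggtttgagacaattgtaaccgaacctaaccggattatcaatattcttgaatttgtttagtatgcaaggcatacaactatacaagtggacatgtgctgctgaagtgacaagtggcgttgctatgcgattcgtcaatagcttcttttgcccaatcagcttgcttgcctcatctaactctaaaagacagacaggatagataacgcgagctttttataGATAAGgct
LHCB4.3 (chr2:16745378-16745627, plus strand): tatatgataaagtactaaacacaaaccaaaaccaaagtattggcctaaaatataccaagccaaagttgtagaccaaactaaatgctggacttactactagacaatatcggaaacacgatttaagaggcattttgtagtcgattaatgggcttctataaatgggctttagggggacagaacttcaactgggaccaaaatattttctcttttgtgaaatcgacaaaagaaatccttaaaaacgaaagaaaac
RBCS2B (chr5:15382072-15382321, minus strand): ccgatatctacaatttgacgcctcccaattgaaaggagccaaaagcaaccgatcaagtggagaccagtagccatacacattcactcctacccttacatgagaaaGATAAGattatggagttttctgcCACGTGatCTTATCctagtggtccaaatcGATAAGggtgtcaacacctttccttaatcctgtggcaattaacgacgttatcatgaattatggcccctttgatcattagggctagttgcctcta
RBCS3B (chr5:15378643-15378892, minus strand): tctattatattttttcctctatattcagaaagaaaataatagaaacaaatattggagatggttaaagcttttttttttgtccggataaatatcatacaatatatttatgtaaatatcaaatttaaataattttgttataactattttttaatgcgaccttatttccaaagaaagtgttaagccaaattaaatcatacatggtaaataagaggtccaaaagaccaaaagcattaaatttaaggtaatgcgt

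LHCB2.3 has a G-box that LHCB2.1 and LHCB2.2 lack, and LHCB2.1 has an I-box. In these windows LHCB4.1 has a G-box, LHCB4.2 an I-box and LHCB4.3 neither, and RBCS2B has both motifs where RBCS3B has neither. The windows end at annotated starts, which need not lie at matching places in related genes. A motif absent from a window may thus lie outside it. Over the 45 genes, searched on both strands, the G-box occurred in 9 (20%, against 6.58% of 26711 protein-coding genes) and the I-box in 11 (24.4% against 12.2%). CCAAT, the site of the NF-Y complex, occurred in 29 (64.4% against 46.1%), with 13 of the 14 LHCB genes but only 2 of the 10 PSB genes (20%) among them. The evening element AAAATATCT, a clock motif, occurred in 0 of the 45 windows, against 2.4% of all genes. Of the core letters known from CAMTA sites, CGCG occurred in 4 (8.89% against 10.1%) and CGTG, which overlaps the G-box, in 24 (53.3% against 45.7%). A match describes only these letters in this window, and the CAMTA letters were about as common before the 45 genes as before other genes. These cores are short and occur before many genes, longer CAMTA motifs were not searched, and binding of CAMTA factors was not tested.

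Whether the genotype effect differed between treatments was tested directly. For AvrRpm1 minus AvrRps4, none of the 45 genes was called in edgeR or DESeq2, where 0.00522% of all genes were called higher and 0.0157% lower, and 2 were higher at an unadjusted p under 0.05, beside 7.09% of all genes (8.47% were lower). DESeq2 called 1.22% of all genes higher and 1.88% lower. The lowest adjusted p was that of PSBS (0.56 ± 0.18, adjusted p = 0.207). For Pst minus flg22, again none was called by either tool, where 0.141% of all genes were called higher and 0.167% lower, and 2 were lower at an unadjusted p under 0.05, beside 9.69% of all genes (6.5% were higher). DESeq2 called 1.46% of all genes higher and 1.85% lower. The lowest adjusted p was that of PSAD2 (−0.43 ± 0.14, adjusted p = 0.188). The 5 genes called after flg22 and the 3 called after AvrRps4 are therefore not shown to differ between genotypes in one treatment more than in another.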

How the data were processed

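The values analysed were raw read counts per gene and library, as the authors deposited them. According to their labels and notes, libraries of polyadenylated RNA were made with the TruSeq RNA kit, checked with FastQC (0.11.2), aligned to TAIR10 with TopHat2 (2.0.10) and counted with HTSeq. The strand setting, read length and treatment of reads with several matches are not given in the sources used here. All 12 libraries were mapped to groups by their labels, and 0 columns of the table were left unused. The table held 5 lines that name no gene, which were kept out of library sizes and tests. Locus names were matched to RefSeq TAIR10.1 (31912 of 32678, and all 45 photosynthesis genes). No 2 of the 66 pairs of libraries were identical.

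Genes were filtered with filterByExpr (minimum count 10), scaled by TMM and fitted with the quasi-likelihood model of edgeR (4.0.16, R 4.3.3) on all 12 libraries with a mean per group, which left 6 residual degrees of freedom. The common biological coefficient of variation was 0.15. P-values were adjusted by the Benjamini-Hochberg method across 19167 genes. Since a group held only 2 libraries, the spread was estimated jointly over groups and genes. A first value is that of replicate 1 and a second that of replicate 2, and errors are SE from the model.

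The members, the other gene lists and the tests were chosen with earlier results of these data known. The genes named were those called (the 6 with the smallest p where there were more, the 2 with the smallest p where there were none), 8 fixed representatives (LHCA1, LHCB1.3, LHCB4.3, PSAF, PSBO1, PSBS, RBCS1A, RCA), the genes with the highest and lowest levels, genes for the same protein, and up to 3 genes per other list. Others are named for their place in a family or class and were chosen after their values were seen. ELIP1 and ELIP2 had too few counts to be tested. Alternatives were median-ratio size factors, DESeq2 (1.42.0), no filter, the replicate number as a block, TMM without the 45 genes and organelle genes, an adjusted p under 0.01, each library left out, and total counts, the last chosen after seeing the data. The pipeline was tested on simulated data.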

Additional observations from a re-analysis of the deposited data

Results flagged for a closer look

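Among the reads not assigned to a gene, which no comparison above uses, those aligned at more than 1 place and those outside annotated genes had their highest shares in camta3-D libraries. Reads aligned at more than 1 place were 7.78% of those counted in the second camta3-D AvrRpm1 library, while the highest wild-type library had 3.43%. These reads bear on genes with near-identical copies such as LHCB1, LHCB2 and RBCS. Reads outside annotated genes were 2.95% in the second camta3-D flg22 library, beside 2.83% in the highest wild-type library. The part of these reads in the results for single genes was not tested, and the counts of genes called without the first of these libraries stand with the results.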

How the results depend on the processing

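Direction was kept by every call under every alternative other than total counts. The numbers of the 45 genes called were as follows where they moved by more than 1.5 times. For camta3-D against wild type after flg22 (5 called), median-ratio size factors and TMM without the 45 and organelle genes each gave 3, the replicate block 1, an adjusted p under 0.01 gave 0, and leaving out a library 0 in each case. After AvrRpm1 (0 called), DESeq2 gave 3, the fit without the filter 1 and leaving out a library 0. After AvrRps4 (3 called), DESeq2 gave 11, the block and the stricter threshold 0, and leaving out a library 0 to 8. For the mean of the treatments (18) the stricter threshold gave 6 and leaving out a library 11 to 27. For AvrRpm1 against AvrRps4 in wild type (8), DESeq2 gave 15, the stricter threshold 4 and leaving out a library 3 to 9, and in camta3-D (19) leaving out a library 13 to 17. For Pst against flg22 the range was 30 to 37 in wild type (35) and 19 to 29 in camta3-D (30). The tests of a difference in the genotype effect gave 0 throughout.

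Where a library was left out, the one remaining in its group was assumed to vary like the others. No source used here says that a replicate number marks an experiment, and of 15 correlations between deviations of same-numbered libraries (−0.182 to 0.0983) none was above 0.1, and the block gave 18, 7, 18, 32 and 27 calls in the mean, strain and Pst comparisons. Under total counts, over all genes, the genotype calls after AvrRps4 became 299 higher and 996 lower, and in the mean 1208 and 2732. Those for the strains in camta3-D became 2826 and 1763, and those for the genotype effect of Pst minus flg22 34 and 78.

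Under total counts, chosen after seeing the data, genes called lower with Pst than with flg22 turned positive. In wild type these were PSBP1 (0.0635), PSAO (0.21), LHCB1.2 (0.0497), PSAF (0.23), PSAH2 (0.0839), PSBR (0.20), PSAE2 (0.18), PSBW (0.18), LHCA1 (0.0513), LHCA2 (0.19), PSBQ2 (0.035), PSAL (0.0772), PSBQ1 (0.20), PSAE1 (0.15), LHCB4.1 (0.10) and PSBO1 (0.027). In camta3-D they were PSBP1 (0.0904), LHCB6 (0.0778), PSAK (0.0528), PSAF (0.12), PSAH2 (0.0423), PSAG (0.17), PSAE2 (0.17), PSBQ2 (0.12), LHCB5 (0.00535), PSAL (0.0237), PSBQ1 (0.16), PSAE1 (0.15), LHCB4.1 (0.0601) and PSBO1 (0.0663). This follows from the scaling itself, which shifts all genes.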
